A study of Mus musculus with 8 samples.

Results

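This report describes N6-methyladenosine (m6A) peaks on the transcripts of 10 genes that control the p53 response and entry into the cell cycle: the p53 regulators Mdm2 and Mdm4, the CDK inhibitors Cdkn1a, Cdkn1b and Cdkn2b, the cyclins Ccnd1, Ccnd2 and Ccne1, the kinase Cdk6 and the proliferation antigen Mki67. The genes were taken by symbol from the peak lists of control and Mettl3 knockout hepatic stellate cells. All 10 were found among the 6487 genes that had a peak in either list. They carried 21 of the 8397 control peaks and 18 of the 6709 knockout peaks.

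Hepatic stellate cells are liver pericytes that store vitamin A and become matrix-producing myofibroblasts in culture. Primary stellate cells came from C57BL/6J mice, either labelled WT (the controls) or with a knockout of Mettl3 restricted to stellate cells (cKO), and all were kept for 7 days in culture, which activates them spontaneously. The labels name no Cre driver and give no age. Each genotype had 2 libraries of RNA precipitated with an antibody against m6A and 2 of input RNA, 8 samples in all, but the authors deposited 1 peak list for each genotype and no value for a single library. No difference between the genotypes therefore has a replicate error or a test, and the read depth behind each peak is unknown.

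m6A is written on mRNA by a complex whose catalytic subunit is METTL3, is concentrated around stop codons, in long exons and in 3′ UTRs, and is read by proteins that affect the decay, splicing and translation of the transcript. MDM2 and MDM4 restrain p53, MDM2 as the ubiquitin ligase that marks it for degradation. When p53 is active it switches on Cdkn1a, whose product p21 blocks cyclin-dependent kinases, and Mdm2 itself, which closes a feedback loop. D-type cyclins with CDK4 or CDK6, and then cyclin E with CDK2, drive cells from G1 into S phase, and Ki-67 is present in cycling cells and absent from resting ones.

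The comparison asked where m6A was called on these transcripts with and without Mettl3 in the stellate cells. Control cells had peaks in 9 of the 10 genes and cKO cells in 8. Of the 9 genes with control peaks, 7 carried a cKO peak too, beside 56.1% of all control genes. Of the 8 genes with a cKO peak, 7 also had a control peak, beside 65.1% over the whole cKO list. Peaks of the 2 genotypes shared at least 1 bp of exon on the same strand in 5 genes (Mdm2, Cdkn1a, Ccnd2, Cdk6 and Mki67), or 5 of the 9 control genes beside 42.4% of the whole control list. Ccnd1 and Cdkn1b had peaks in both lists at separate places. Mdm4 and Cdkn2b carried a peak only in control cells and Ccne1 only in cKO cells. A gene without a called peak may still be methylated, and transcript abundance was not analysed here.

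At the level of single peaks, 12 of the 21 control peaks were overlapped by a cKO peak, beside 33.7% of all control peaks. In the other direction 11 of the 18 cKO peaks were overlapped by a control peak, beside 41.8% of all cKO peaks. Mki67 alone held 8 of the control and 6 of the cKO peaks. Without Mki67, 5 of 13 control peaks and 5 of 12 cKO peaks had a counterpart. Peaks of 1 transcript share its abundance, so they do not count as separate evidence.

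**Figure D1:**
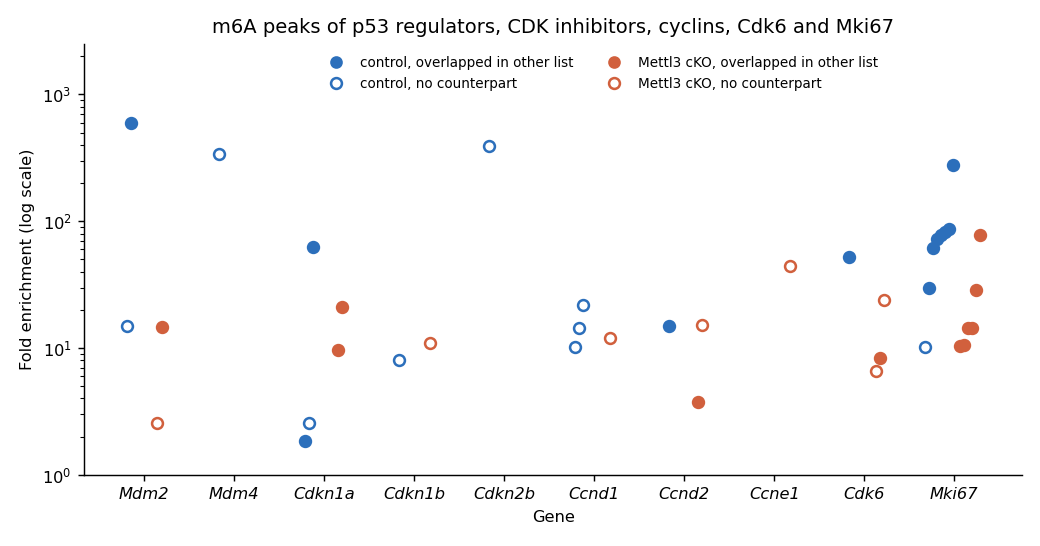
Fold enrichment (log axis) of every peak of the 10 genes, control in blue and Mettl3 cKO in orange; each point is 1 peak, and filled points overlap a peak of the other genotype. Mdm2, Cdkn2b, Mdm4 and Mki67 hold the highest control folds (595, 393, 339 and 280). The highest cKO fold is 78, and the folds of the genotypes may not share a scale.

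The fold enrichments are the authors' own, computed within each genotype and read here as precipitated over input RNA. The median was 52.3 over the 21 control peaks of these genes, beside 19.3 over all control peaks. It was 13.2 over their 18 cKO peaks, the same as over all cKO peaks. Without Mki67 the medians were 14.9 and 11.6. The 2 lists may not share a scale. Folds of both lists are given side by side below, but a difference between them is not read as a change in methylation. Ranks refer to a peak's own list.

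The p53 ligase gene Mdm2 carried 1 of the strongest control peaks of the whole study and a cKO peak of middle rank at the same place. In control cells a coding-sequence peak of 927 exonic nucleotides lay on chromosome 10 from 117690101 to 117691386 (mm10, minus strand) in 2 exon blocks of 242 and 685 nucleotides. Its fold was 595, rank 81 of the 8397 control peaks, with a log10 p of -216. In cKO cells a peak of 240 nucleotides, from 117690400 to 117690639, lay wholly inside the larger of these blocks at fold 14.7 (p of 8.5e-05), rank 3031 of 6709.

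The other Mdm2 peaks had no counterpart. The control list held a 3′ UTR peak of fold 14.9 that ended 209 nucleotides before the annotated 3′ end of the gene. The cKO list held a 5′ UTR peak of 151 nucleotides in 3 blocks of 69, 75 and 7 nucleotides, at fold 2.57. It began 1036 nucleotides from the annotated 5′ end of the gene and ranked 6526 of 6709. Thus control peaks of Mdm2 lay in the last part of the transcript, whereas 1 of the cKO peaks lay near its start.

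Mdm4 encodes the relative of MDM2 that binds p53 and lacks strong ligase activity of its own. It had 1 peak, in control cells alone. The peak covered 480 exonic nucleotides from 132991792 to 132994548 on chromosome 1 (minus strand), in blocks of 46 and 434 nucleotides. The authors classed it as exon with no more specific part, and its 3′ edge lay 5.69 kb from the annotated 3′ end of the gene. Its fold of 339 ranked 210 in the control list. The best control peaks of Mdm2 and Mdm4 thus stood above 99% and 97.5% of all control peaks by fold.

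The 3 CDK inhibitor genes differed in where their peaks lay. Cdkn1a, which encodes p21, had 3 control and 2 cKO peaks on the plus strand of chromosome 17. The coding-sequence peak from 29098350 to 29098616 had a fold of 62.4 in control cells, and the cKO peak inside it, of 179 nucleotides, had 9.56. In the 3′ UTR, peaks of both genotypes began at the same base, 29099626, with a fold of 1.85 over 119 nucleotides in control and 21 over 179 nucleotides in cKO. A further control peak of fold 2.55 (p of 2.5e-55) ended 30 nucleotides before the annotated end of the gene and had no counterpart.

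By fold, the leading Cdkn1a site therefore differed between the lists, with the coding site leading in control cells and the 3′ UTR site in cKO cells. Such a change of order was common. Of 272 genes with exactly 2 sites called as single overlapping peaks in both lists, 128 (47.1%) had a different leading site in each. The p-values of Cdkn1a did not follow its folds. In the control list the 3′ UTR peak of fold 2.55 had a much smaller p than the coding peak of fold 62.4 (2e-20), and in the cKO list the 3′ UTR peak of fold 21 had the smallest p of the gene (2e-67).

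Cdkn1b, which encodes the inhibitor p27, had 1 weak peak in each list and no shared site. The control peak lay in the 3′ UTR from 134922699 to 134922848 on chromosome 6 (plus strand) at fold 8.05 (p of 0.011). The cKO peak lay in the 5′ UTR from 134920820 to 134920940 at fold 11 (p of 0.0013), 1758 nucleotides upstream of the control peak and 419 nucleotides from the annotated 5′ end of the gene. The p15 gene Cdkn2b, whose product inhibits CDK4 and CDK6, had a single control peak and none in cKO cells. It covered 831 nucleotides of the 3′ UTR in 1 block, on chromosome 4 from 89306407 to 89307237 (minus strand), and ended 118 nucleotides before the annotated 3′ end. Its fold of 393 ranked 169 of 8397, and its log10 p was -132. Among the inhibitors, only Cdkn1a had a site called in both genotypes, and over all control genes 42.4% had an overlapped peak.

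**Figure D2:**
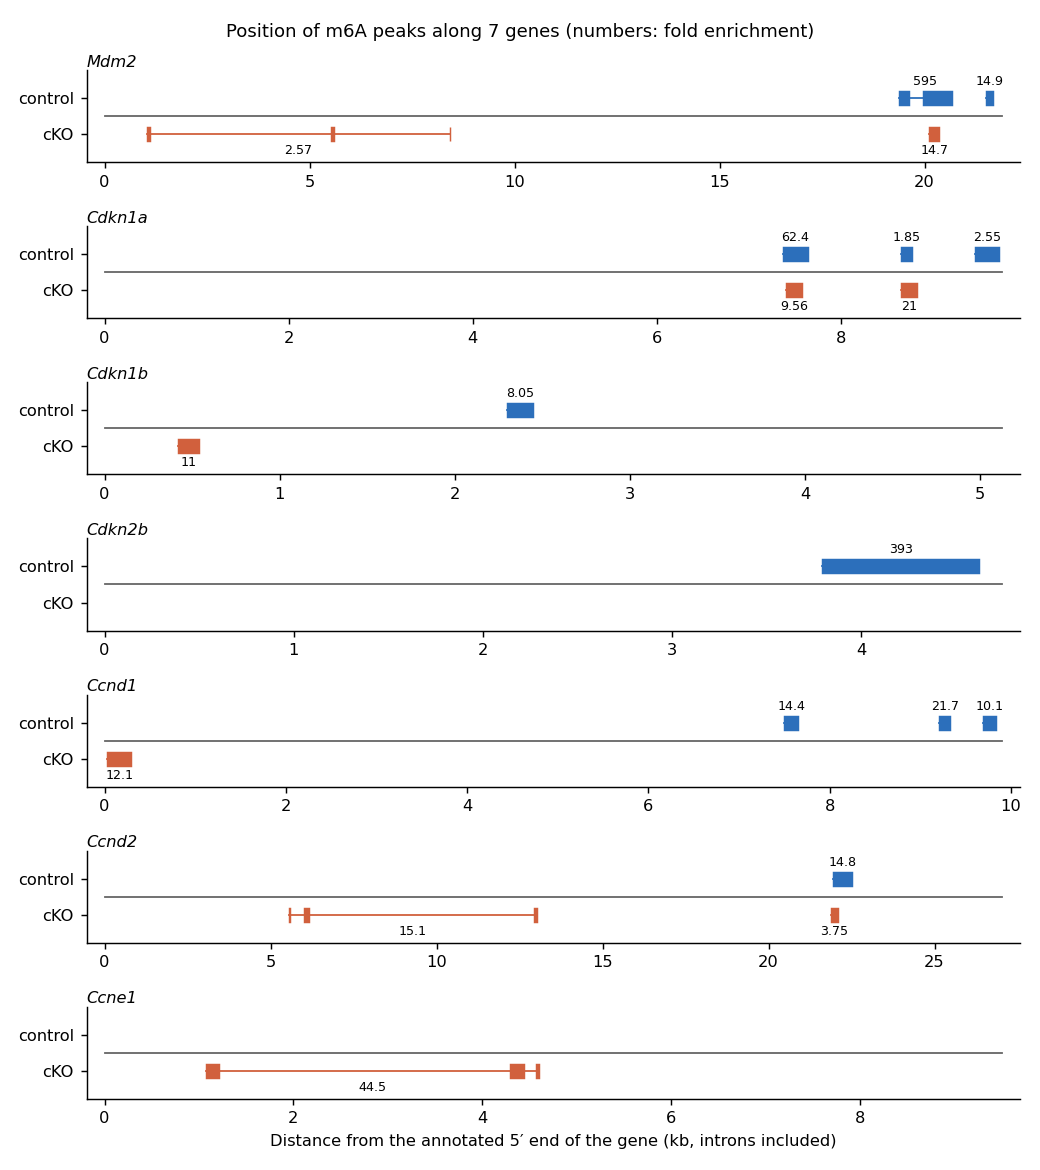
Peaks of 7 of the genes drawn as exon blocks joined by thin lines, control above and Mettl3 cKO below the grey gene line, by distance from the annotated 5′ end of the gene in kb, with the fold enrichment beside each peak. Control peaks sit toward the right (3′) end of Mdm2, Cdkn1a, Cdkn2b, Ccnd1 and Ccnd2 and near the middle of Cdkn1b. The cKO peaks of Cdkn1a and 1 cKO peak each of Mdm2 and Ccnd2 sit toward the right end too. Other cKO peaks appear near the left end of Mdm2 (fold 2.57), Cdkn1b and Ccnd1.

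Among the cyclin genes, only Ccnd2 had a site called in both genotypes. Over the whole control list, 42.4% of genes had an overlapped peak. Ccnd1, which encodes cyclin D1, had 3 control peaks, all in its 3′ UTR on the minus strand of chromosome 7. From 5′ to 3′ they lay from 144932180 to 144932330, from 144930501 to 144930621 and from 144929991 to 144930141, with folds of 14.4, 21.7 and 10.1. The only cKO peak of Ccnd1 lay at the opposite end of the gene, from 144939535 to 144939805, at fold 12.1 (p of 2.1e-09). The authors classed it as coding sequence. It began 26 nucleotides from the annotated 5′ end, and 7204 genomic nucleotides separated it from the nearest control peak.

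Ccnd2, which encodes cyclin D2, had 1 control peak of 571 nucleotides in the 3′ UTR, from 127129686 to 127130256 on chromosome 6 (minus strand). Its fold of 14.8 was below the control median of 19.3, yet its deposited p was 0 and its log10 p was -882. A cKO peak from 127130106 to 127130315 shared 151 nucleotides with it at fold 3.75 (p of 1.6e-12). The cKO peak of higher fold, at 15.1 but with a larger p (3.3e-07), lay in coding sequence in 3 blocks of 32, 160 and 79 nucleotides and had no control counterpart. As in Ccnd1, the cKO list held a site in the 5′ part of the gene that the control list did not.

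Ccne1, which encodes cyclin E1, was the reverse case, with no control peak and 1 cKO peak. That peak covered 330 nucleotides of coding sequence in 3 blocks of 142, 149 and 39 nucleotides, on chromosome 7 from 38102883 to 38106420 (minus strand). Its fold of 44.5 ranked 930 of 6709 in the cKO list, with 85.9% of cKO peaks below it. Among these 10 genes only an Mki67 peak had a higher cKO fold.

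Cdk6, the kinase partner of the D-type cyclins, had 1 control and 3 cKO peaks on the plus strand of chromosome 5. The control peak had blocks from 3519374 to 3519494 and from 3520645 to 3520794, and its fold was 52.3 (p of 1e-32). The overlapping cKO peak crossed the same exon junction, with blocks from 3519359 to 3519494 and from 3520645 to 3520764, and it reached 14 nucleotides into the exon before. Its fold was 8.34 (p of 6.3e-22). The authors classed the control peak as exon and the cKO peak as coding sequence, although they shared 241 nucleotides. Of the 12 overlapping pairs in the 10 genes this was the 1 pair with unequal classes, beside 7% of the 3015 overlapping pairs in the study. The cKO list also held 2 Cdk6 peaks in the 3′ UTR without a counterpart, at fold 24.1 (p of 1e-14) and 6.62. The cKO peak of highest fold was thus at a place where control cells had none, while the cKO peak of smallest p was the shared one.

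Mki67 carried the most peaks of the 10 genes, all in coding sequence, and nearly all at places called in both genotypes. The 8 control peaks together covered 2794 nucleotides and the 6 cKO peaks 2911. They lay on chromosome 7 between 135693449 and 135701904 (minus strand), beyond the midpoint of the gene. Of the control peaks 7 were overlapped, and of the cKO peaks all 6.

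From 5′ to 3′, the control folds of Mki67 were 280, 78.5, 29.8, 86.2, 61.6, 10.1, 82.1 and 72.5. The strongest, from 135700261 to 135700830, ranked 271 of 8397. From 5′ to 3′ the cKO folds were 78, 10.5, 14.3, 14.5, 10.3 and 28.7. The strongest cKO peak had a block of 1286 nucleotides from 135699782 to 135701067, which contained both of the first 2 control peaks, and 3 nucleotides of the exon before. It ranked 441 of 6709, with a log10 p of -301. The 5′-most site thus led in both lists.

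The sites that followed varied in how far the peaks matched. The third control peak and the second cKO peak shared their 3′ edge at 135699363, with folds of 29.8 and 10.5. The fifth control peak and the fourth cKO peak shared 270 nucleotides, with folds of 61.6 and 14.5. The fourth control peak (fold 86.2) shared 121 nucleotides with a cKO peak of 14.3, the seventh (82.1) shared 90 with one of 10.3, and the last (72.5) shared 211 with one of 28.7. The only Mki67 control peak without a counterpart, at fold 10.1, lay 29 nucleotides from the nearest cKO peak. Over the 5 one-to-one sites, which leave out the 5′-most site, the order of folds also differed. The fourth control peak led in control and the last site led in cKO. Of 349 genes with 2 or more one-to-one sites, 52.1% had a different leading site in each list.

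**Figure D3:**
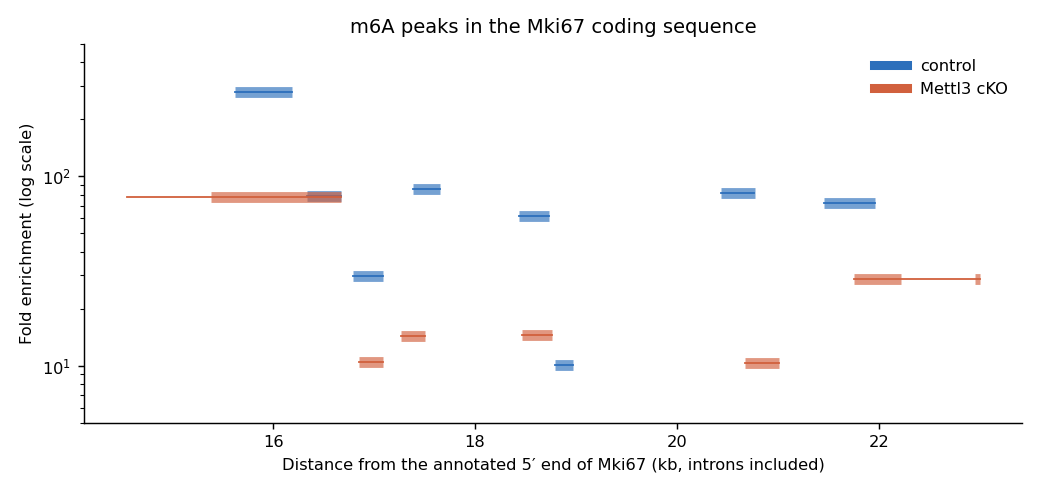
Mki67 peaks by distance from the annotated 5′ end of the gene (kb, introns included) and by fold enrichment (log axis), control in blue and Mettl3 cKO in orange, with thick bars for exon blocks. The first cKO peak, at fold 78, spans the first 2 control peaks, at 280 and 78.5, and the other cKO peaks lie between folds 10.3 and 28.7.

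By transcript part, the count of shared sites rested largely on Mki67. Of the 10 control coding-sequence peaks 9 had a cKO counterpart, beside 38.4% of all control coding peaks. Mki67 held 7 of those 9. Of the 9 control 3′ UTR peaks 2 had one (in Cdkn1a and Ccnd2), beside 25.3% of all control 3′ UTR peaks. In the other direction 9 of 12 cKO coding peaks and 2 of 4 cKO 3′ UTR peaks had a control counterpart, beside 46.8% and 41.9% over the cKO list. Outside Mki67 the overlapped control peaks were 2 in coding sequence (Mdm2 and Cdkn1a), 2 in 3′ UTRs and 1 of the exon class (Cdk6). By the authors' classes, the control list held no 5′ UTR peak in these genes, beside 2.32% of all control peaks. The cKO list held 2 among 18 peaks, in Mdm2 and Cdkn1b, beside 7.56% of all cKO peaks. In all, 42.9% of the control peaks and 22.2% of the cKO peaks of the 10 genes lay in 3′ UTRs, beside 31.7% and 23.9% of the whole lists.

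Among peaks without a counterpart, the cKO peaks lay closer to the 5′ end of the gene by median than the control peaks. Along the gene, introns included, the 9 unmatched control peaks had their midpoints between 46.3% and 98.6% of the distance from the 5′ end (median 88.7%), and 1 lay before the gene's midpoint. The 7 unmatched cKO peaks ranged from 1.63% to 97.4% (median 29.9%), and 5 lay before the midpoint, in Mdm2, Cdkn1b, Ccnd1, Ccnd2 and Ccne1. The others, both in Cdk6, lay near the 3′ end, at 95.9% and 97.4%. All 12 control and 11 cKO peaks with a counterpart lay beyond the midpoint, and Mki67 held 7 and 6 of them; over all genes that could be placed, 25.3% of such peaks lay before it in either list. Over the same genes, 20.4% of unmatched control peaks and 37.3% of unmatched cKO peaks lay before the midpoint, so the cKO list as a whole leaned the same way. Among the peaks of the 10 genes, 3 of 21 in control and 6 of 18 in cKO spanned more than 1 exon block, beside 28.8% and 48.5% of the lists.

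Some of the peaks sat at values that recur across the lists. Of the 21 control peaks, 6 had a fold and a p that at least 20 peaks of the list shared exactly, and so did 5 of the 18 cKO peaks. These control peaks had folds from 8.05 to 29.8 and the cKO peaks from 6.62 to 14.7. The cKO coding peak of Mdm2 was 1 of 43 cKO peaks with fold 14.7 and p 8.5e-05. The Cdkn1b peaks were of this kind in both lists, shared by 122 control peaks and 51 cKO peaks. The last Ccnd1 peak and the sixth Mki67 peak of the control list had the same fold and p (10.1 and 0.0028), together with 125 peaks in all. By contrast, 9 control and 10 cKO peaks had values that occurred a single time. They included the control peaks of highest fold of Mdm2, Mdm4 and Cdkn2b. They also included peaks of low fold, in Cdkn1a (1.85 and 2.55 in control), Mdm2 (2.57 in cKO) and Ccnd2 (3.75 in cKO). The share of all peaks at recurring values is not given, so these counts have no background.

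The wider p53 and cell cycle network was read from 7 further gene lists, 145 genes in all, of which 68 had a peak. Of the 55 with control peaks, 35 (63.6%) carried a cKO peak too and 27 (49.1%) an overlapping one, beside the 56.1% and 42.4% of all control genes given above. A further 13 were only in the cKO list. Trp53 itself had no peak in either list, nor did Cdkn2a, Atm, Chek1 or Rb1. Folds of a gene in what follows are those of its best peak in control and in cKO.

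Among 26 regulators of p53, 7 genes had peaks in both lists, 4 only in control and 2 only in cKO cells. Of the 11 with a control peak, 63.6% carried a cKO peak too, beside 56.1% of all control genes. The acetyltransferase genes Crebbp (339 and 30.9) and Ep300 (59.6 and 57) and the p53 kinase gene Hipk2 (270 and 18.8) were in both. Their best peaks did not overlap each other, though other pairs of Crebbp and Ep300 peaks did. The deubiquitinase gene Usp10 (51.9), the phosphatase gene Ppm1d (24.2) and the deacetylase gene Sirt1 (22.1) were only in the control list. Rpl5 (9.01), a ribosomal protein that can bind MDM2, and Pml (3.6) were only in the cKO list.

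Of 27 p53 target genes, 8 were in both lists, 6 only in control and 3 only in cKO cells. Of the 14 with a control peak, 57.1% carried a cKO peak too, near the 56.1% of all control genes. The stress gene Sesn2 (513 and 5.7), the antiproliferative gene Btg2 (392 and 26.1) and the kinase gene Plk2 (262 and 14.3) were in both. The best peaks of Sesn2 and Btg2 overlapped, and in Plk2 another pair of peaks did. The exonuclease gene Aen (190), the death receptor gene Tnfrsf10b (84.1) and Gadd45a (48.7) were only in the control list. The receptor gene Eda2r (15.1) and the apoptosis gene Bax (10.7) had a 5′ UTR peak only in the cKO list. The median best control fold of these target genes was 78.7, beside 26 over all control genes, and the median best cKO fold was 14.3, beside 16.5.

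Of 8 further cyclin genes with a control peak, 5 (62.5%) carried a cKO peak too, as did 7 of 8 kinase genes (87.5%), beside the 56.1% of all control genes. Of 9 further cyclin genes with a peak, 5 were in both lists, including Ccni (121 and 12.1), Ccnt1 (107 and 27.6) and Ccnh (21.3 and 139), and the best peaks of all 3 overlapped. The control list alone held Ccnl2 (54.4), Ccnj (12.5) and the S-phase and mitotic cyclin gene Ccna2 (4.03). Ccne2, the paralogue of Ccne1, had a peak of fold 15.4 only in the cKO list. The median best fold over all cKO genes was 16.5. Both cyclin E genes thus had a cKO peak and no control peak, while 65.1% of all cKO genes had a control peak too. Of 10 further kinase genes 7 were in both lists, with Cdk12 (270 and 14.7), Cdk13 (165 and 35.7) and Cdk4 (77.7 and 7.85) leading by control fold. The best peaks of Cdk13 overlapped, while in Cdk12 and Cdk4 only another pair of peaks did. Cdk9 (33) was only in the control list, and Cdk2 (8.83), the partner of cyclin E, and Cdk19 (6.25) only in the cKO list.

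Some other inhibitors and RB pathway genes carried peaks. The share of all annotated genes with a peak was not computed, so these counts have no background. Of 14 further inhibitors and degraders 3 had a peak, the cyclin E ligase gene Fbxw7 in both lists (107 and 26.5) and Wee1 (11.7) and Fzr1 (9.66) only in the control list. Of 17 RB and E2F genes 4 had a peak, and 0 of the 3 with a control peak had it overlapped, beside the 42.4% of all control genes. E2f3 (58.8 and 7.72) and the repressor gene E2f7 (7.25 and 91.2) were in both lists, Lin54 (7.15) only in the control list and Tfdp2 (9.19) only in the cKO list.

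Proliferation genes held several of the higher cKO folds. Of 12 with a peak, 5 were in both lists, 3 only in control and 4 only in cKO cells. Of the 8 with a control peak, 62.5% carried a cKO peak too, beside 56.1% of all control genes. The centromere genes Cenpe (92.2 and 181) and Cenpf (15.3 and 90.5) and the spindle gene Tpx2 (53.1 and 163) were in both. The best peaks of Cenpf overlapped, while in Cenpe and Tpx2 only another pair of peaks did. The best Tpx2 peak lay in the 3′ UTR in control and in coding sequence in cKO. The replication clamp gene Pcna (58.4), Foxm1 (15.7) and Birc5 (8.86) were only in the control list, and Mcm3 (105) and Incenp (19.9) only in the cKO list. The median best fold of the list was 15.5 in control, beside 26 over all control genes, and 36.4 in cKO, beside 16.5 over all cKO genes.

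**Figure D4:**
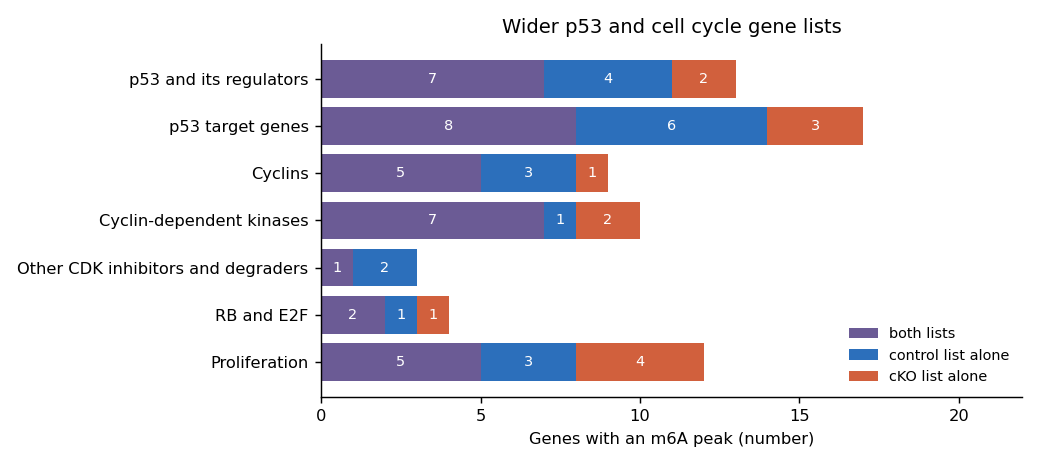
Number of genes of each wider list with an m6A peak in both lists (purple), only in the control list (blue) or in the cKO list only (orange). Of the 8 kinase genes with a control peak, 7 are in both lists, beside 56.1% of all control genes. The p53 target genes have the most genes with a peak (17). Of the 14 with a control peak, 8 (57.1%) are in both lists, near the share of all control genes, and 6 only in the control list.

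The labelled cell type was checked against marker genes. All 11 stellate cell markers had a peak. Of the 9 with a control peak, 8 carried a cKO peak too, beside 56.1% of all control genes. In 6 of the 9 the peaks overlapped, beside 42.4% of all control genes. Des, Pdgfrb, Col1a1 and Acta2 were in both lists, though the Acta2 peaks did not overlap. Lrat was only in the control list, and Reln and Dcn only in the cKO list. None of 7 hepatocyte markers had one. Of 6 endothelial markers 4 did, among them Cdh5 (737 and 136), whose best peaks overlapped, and Pecam1 (30.6 and 46.3), whose best peaks did not. Of 6 macrophage markers 2 had a peak (Csf1r in control and Cd68 in cKO), and of 4 cholangiocyte markers 1 (Krt19 in cKO). The share of all annotated genes with a peak was not computed, so the counts of markers with a peak have no background. A peak is no measure of a cell type's share, and the part of other cell types in the peaks of the 10 genes was not tested.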

How the data were processed

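The labels give 8 samples in 4 groups of 2, but each deposited peak list stands for a genotype, so lists were compared and no test was run. Per the submitters' processing notes, HISAT2, HOMER and the mm10 build were used, in roles that are not stated. Neither the peak caller nor its treatment of replicates is given in the sources used here. Per the file headers, the deposited lists give a fold enrichment (a ratio) for each peak. The deposited column named score holds the p-value, whose log10 differs by at most 0.02 from the deposited log10 column. The deposited log10 p and log10 false discovery rate were treated as a score, since they run beyond the usual range.

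Peaks were taken from outer start to outer end, with starts made 1-based, and split into exon blocks. Counterparts shared at least 1 bp of exon block on the same strand, a step tested on simulated data. Alternatives required an overlap of 50% of both peaks, compared outer spans, or kept peaks of fold 5 or 10 or more or of p up to 1e-10. Gene ends came from a RefSeq table of GRCm38, the mm10 build, and all 39 peaks lay inside them. Of the 10 genes, 8 had a promoter window in RefSeq, which no peak touched. All peaks of the 10 genes are reported. From each wider list the named genes are up to 3 of highest control fold in both lists, up to 3 of highest control fold in the control list alone and up to 2 of highest cKO fold in the cKO list alone. Genes named as having no peak, and examples among cell type markers, were chosen after their values were seen. The 10 genes and all lists were chosen with earlier results of these data known. Python 3.11.15, pandas 2.3.3, numpy 2.4.6 and matplotlib 3.10.9 were used.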

Additional observations from a re-analysis of the deposited data

How the results depend on the processing

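Counts of shared sites depended on what was called shared. When the overlap had to cover 50% of both peaks, 5 control and 5 cKO peaks of the 10 genes had a counterpart (12 and 11 otherwise), in 3 genes and not 5. With peaks of fold 10 or more alone, 7 cKO peaks had a counterpart, in 2 genes. With p of at most 1e-10, 5 control and 4 cKO peaks had one, in 3 genes; 5 genes had a cKO peak, 4 had peaks in both lists, and 12 of the wider lists' genes did (35 otherwise). The fold and p settings left fewer peaks to compare, 14 control and 7 cKO peaks for p, whereas the 50% overlap kept all 21 and 18. The share of all peaks with a counterpart is not given under these settings. Whether the falls belong to these genes or to the whole lists is therefore unknown. Comparing outer spans or keeping folds of 5 or more left every count within 1.5 times its value. Ranked by p and not by fold, the best control peak of Mdm2 stood at 444, that of Mdm4 at 730 and that of Cdkn2b at 663, while Ccnd2 shared rank 1 with the other peaks of p 0. No paired analysis was possible because each genotype has 1 peak list with no value per library; for the same reason no library could be left out. Depth is unknown, so whether an uncalled peak was missed for want of reads was not tested.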
